A study of Homo sapiens with 46 samples.

Results

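The 10 genes described here were followed through 4 cell fractions and 4 cell types: FOS, FOSL1, JUN, JUNB, JUND, EGR1, IER2 and ATF3, which are immediate early genes or close relatives of them, and MYC and MYCN of the MYC family. These 10 members were chosen by name, as all rows carrying one of the symbols in the transcript tables of the 4 cell types, out of 21166 Ensembl genes present in any of those tables. A member's value is the sum over its rows, given as CPM (counts scaled to a library total of 1000000). There were 7 members in all 4 tables. The hPSC table lacked EGR1, the ectoderm table lacked JUND, and the endoderm table lacked EGR1 and MYCN, while the mesoderm table held all 10. Each cell type was counted on its own transcript assembly, so a member missing from a table has no value there, which is not a measured 0.

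Immediate early genes are switched on within minutes of a growth factor or stress signal, without new protein synthesis, and their mRNAs are short-lived. FOS and FOSL1 proteins pair with JUN, JUNB or JUND to form the transcription factor AP-1, and ATF3, a stress-induced relative, can pair with JUN proteins. EGR1 is a zinc finger transcription factor and IER2 a small nuclear protein, both induced early through serum response factor. MYC and MYCN are transcription factors that pair with MAX and drive growth and ribosome production, and both are known from pluripotent and progenitor cells.

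The study used the human pluripotent cell line H1 (hPSC), kept undifferentiated in mTeSR1 or turned into 3 germ layers in culture, with collection after 5 days. Ectoderm cells received A83-01, PNU-74654 and dorsomorphin at 2 µM each, endoderm cells WNT3A and 100 ng/ml activin A, and mesoderm cells 100 ng/ml BMP4, 100 ng/ml VEGF and 10 ng/ml bFGF with 100 ng/ml activin A for the first day. Plates were digested and the cells lysed in buffers with 25 µM α-amanitin, which blocks RNA polymerase II, and the lysates gave cytoplasm, nucleus, nucleoplasm (soluble nuclear RNA) and chromatin. There were 3 libraries in 15 of the 16 groups and 1 of mesoderm nucleoplasm, 46 in all; the labels name no separate cultures or dates, so p-values cover only the spread between these libraries, which may be technical. All cells derive from 1 line, and no label of these libraries names actinomycin D, which the series text mentions. These are bulk samples, in which fewer cells of a type and less RNA per cell cannot be told apart.

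Library totals ran from 4990408 to 21298678 counts. All 7 hPSC markers were in the hPSC table, 7 of 8 ectoderm markers in the ectoderm table and all 8 endoderm markers in the endoderm table. Presence alone did not set the cell types apart. The ectoderm and endoderm tables each held 6 hPSC markers, and the endoderm and mesoderm tables each held 5 ectoderm markers. The endoderm table held 7 mesoderm markers, while endoderm markers outside their own table came to 1, in mesoderm. The ectoderm marker TFAP2A averaged 168 CPM in mesoderm cytoplasm and 3.36 in ectoderm cytoplasm. Of 9 mesoderm marker names, 5 were in the mesoderm table: HAND1 averaged 132 CPM and ISL1 57.3 CPM in the cytoplasm, TBXT was at 0.132 CPM, and MESP1, MIXL1 and KDR had no row there. The pluripotency factor POU5F1 still averaged 1765 CPM in endoderm cytoplasm and 892 CPM in mesoderm cytoplasm, against 2954 in hPSC and 6.22 in ectoderm. Blood markers were in none of the tables. Fibroblast markers (4 of 4 in the mesoderm table, with COL1A1 the most abundant) summed to 294 to 357 CPM in mesoderm cytoplasm and 2714 to 3175 in its nucleus, against 270 to 297 and 1274 to 1585 for hPSC. The mitochondrial share of counts was 8.09% to 16.1% in the nucleus libraries of hPSC, ectoderm and endoderm against 0.399% to 1.58% in their cytoplasm libraries. In mesoderm the order was turned round, with 1.11% to 1.36% in the nucleus and 5.84% to 7.46% in the cytoplasm, so its cytoplasm and nucleus labels behaved unlike those of the other cell types for this RNA; its chromatin libraries spread from 0.769% to 5.53%. The part of these shares and markers in the results was not tested.

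The short life of many such mRNAs is tied to the pentamer ATTTA in the 3′ UTR, a known binding site of decay factors. It was counted in the main GENCODE v29 transcript of 9 members (MYC was not counted; both the count and the letters are a description of the reference and measure no binding). FOS had 5 copies in a 3′ UTR of 806 bases, a number reached by 7.79% of 1437 other 3′ UTRs whose length was within 20% of it. The 3′ UTRs of JUN and ATF3 had 3 each, JUNB and MYCN 2 each, FOSL1, JUND and EGR1 1 each, and IER2 0 in 1050 bases. Among the 13686 3′ UTRs counted, the median was 1 copy. For members whose fraction patterns differ below, a window of 30 bases is shown that held as many copies as any other. These are FOS and JUNB (high on chromatin in some cell types) and ATF3 and FOSL1 (low on chromatin). ATTTA is in capitals, 5′ to 3′ on the gene's strand, GRCh38.
FOS, chr14:75282057-75282086, plus strand: ttgtgtttttaATTTATTTAttaagatgga
JUNB, chr19:12793059-12793088, plus strand: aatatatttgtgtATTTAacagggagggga
ATF3, chr1:212619764-212619793, plus strand: cctcaactccaggATTTAggccttaacaca
FOSL1, chr11:65892272-65892301, minus strand: gagggcagctgctATTTAttttcctaaaga
The FOS window holds 2 overlapping copies and the others 1, so the JUNB and ATF3 windows each show 1 of their equal copies. The copy number of the whole 3′ UTR was reached by 26.3% (JUNB), 43.4% (ATF3) and 61.7% (FOSL1) of other 3′ UTRs of like length. The part of the pentamer in the fraction patterns was not tested.

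Promoters are shown for the 4 members in which one of the motifs searched lay in the window printed, to let the reader see what surrounds it. The stretches lie upstream of the RefSeq start site (GRCh38.p14) and outside the GENCODE gene, up to 120 bases. Searched on both strands were the cyclic AMP response half-site TGACG, the TATA box TATAAA (gene strand only), the AP-1 site TGANTCA, the E-box CACGTG and the serum-response CArG box; matches are in capitals. A match is a description, not a bound site.
FOS, chr14:75278708-75278773, plus strand: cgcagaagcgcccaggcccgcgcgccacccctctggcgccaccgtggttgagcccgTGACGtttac
EGR1, chr5:138465359-138465478, plus strand: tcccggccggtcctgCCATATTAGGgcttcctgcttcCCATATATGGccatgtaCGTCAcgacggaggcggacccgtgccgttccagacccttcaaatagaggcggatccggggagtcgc
JUND, chr19:18281623-18281742, minus strand: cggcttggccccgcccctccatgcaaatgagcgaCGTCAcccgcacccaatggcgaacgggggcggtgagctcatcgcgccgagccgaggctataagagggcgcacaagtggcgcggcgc
JUNB, chr19:12791366-12791485, plus strand: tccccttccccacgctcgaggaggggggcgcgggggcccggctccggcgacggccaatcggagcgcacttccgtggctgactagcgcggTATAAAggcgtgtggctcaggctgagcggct
FOS, EGR1 and JUND each held TGACG on one strand or the other, which 13.3% of 35116 promoters of 120 bases hold. EGR1 also held 2 CArG boxes, which 0.664% of promoters hold at least once, and JUNB held TATAAA, found in 3.87%. The last bases of the FOS window that was searched also held TATAAA but lie inside the GENCODE gene and are not printed. No AP-1 site and no E-box was found in the windows of these 4 genes.

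To compare levels between genes, the authors' TPM values, which correct for transcript length, were summed per gene. IER2 had the highest level of the members in the cytoplasm of hPSC (116 ± 12.1 TPM, SD, n = 3), ectoderm (115 ± 19.1) and endoderm (82.9 ± 10.2). In mesoderm cytoplasm JUND stood first (137 ± 11.4 TPM) and IER2 second (99.3 ± 1.85). MYCN was second in hPSC cytoplasm with 63.2 ± 8.30 TPM, above JUND at 35.8 ± 3.15 and MYC at 32.5 ± 7.13, which did not differ beyond their spread. JUNB had the lowest mean in hPSC cytoplasm (4.69 ± 0.689 TPM), but its libraries overlapped those of JUN (5.76 ± 1.61). FOSL1 was lowest in ectoderm cytoplasm (1.45 ± 0.126). In mesoderm cytoplasm MYCN (57.0 ± 4.92 TPM) and JUN (55.7 ± 3.90) were within their spread of each other.

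**Figure D1:**
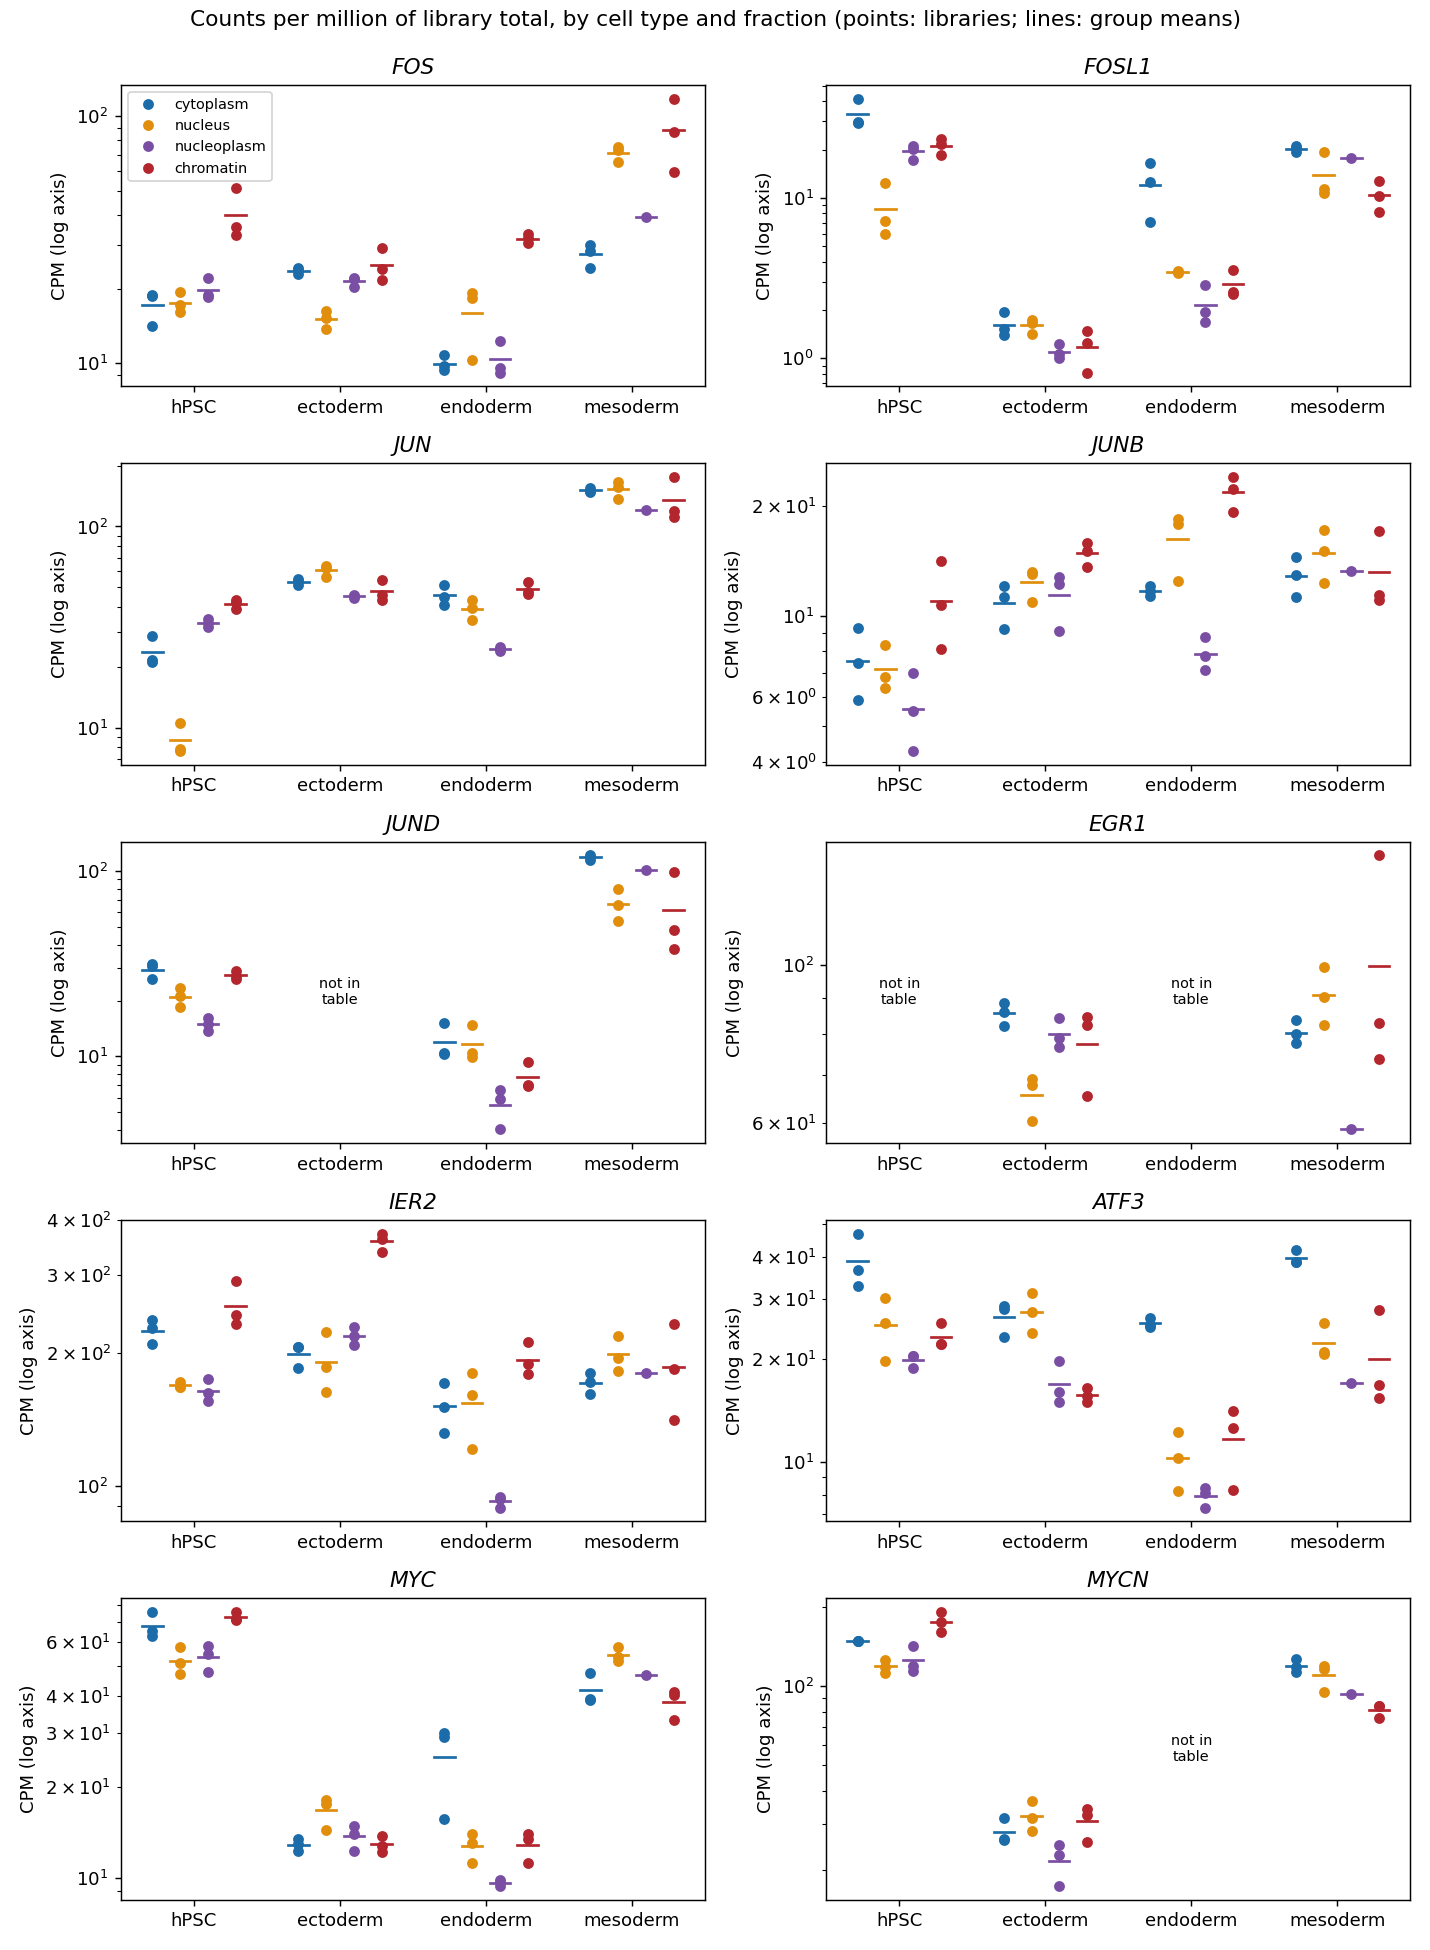
CPM (log axis) of each member in every library, by cell type (x axis) and fraction (colour); lines are group means of 3 libraries, or the 1 library of mesoderm nucleoplasm. FOS and JUN have their highest CPM in mesoderm, FOSL1 and MYCN their lowest in ectoderm, and members without a row in a table have no points there.

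The first comparison set chromatin RNA against cytoplasmic RNA within each cell type, fitted with edgeR's quasi-likelihood test over all genes and called at a Benjamini-Hochberg adjusted p under 0.05. FOS was higher on chromatin in hPSC, endoderm and mesoderm, and ATF3 was lower on chromatin in all 4 cell types relative to the bulk of genes. FOSL1 was likewise lower on chromatin in hPSC, endoderm and mesoderm. In hPSC, 2 members were called higher and 2 lower of 9 tested, beside 63.8% of all 13987 genes tested that were called. In ectoderm 1 was called higher and 3 lower of 9 (61.9% of all genes called), in endoderm 3 higher and 3 lower of 8 (73.0%), and in mesoderm 1 higher and 5 lower of 10 (66.2%). The members' share of calls was thus near or under the background. These calls rest on counts scaled to the bulk of genes. As an alternative chosen after seeing the data, the authors' TPM were tested as log2(TPM + 1) with limma on the same genes, as deposited or with each library's median set equal, and its values are given where they change a called result. The members' median log2 change was 0.02 for hPSC (0.08 over all genes), -0.22 for ectoderm (0.09), -0.09 for endoderm (0.05) and -0.35 for mesoderm (-0.02).

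FOS, the inducible partner of JUN, gave 18.7, 14.1 and 18.97 CPM in the hPSC cytoplasm libraries and 33.0, 35.7 and 51.3 CPM on hPSC chromatin. Every chromatin library lay above every cytoplasm library, and the log2 change was 1.05 (SE 0.18, edgeR adjusted p = 0.000212). In endoderm the values were 9.37, 10.8 and 9.71 CPM in the cytoplasm and 33.2, 32.2 and 30.6 on chromatin, a log2 change of 1.85 (SE 0.17, edgeR adjusted p = 1.51e-07) and the members' largest rise on chromatin. In mesoderm the cytoplasm gave 30.2, 24.3 and 28.6 CPM and chromatin 118, 86.3 and 59.6, a log2 change of 1.45 (SE 0.22, edgeR adjusted p = 0.000134). The mesoderm chromatin libraries spread widely but all lay above the cytoplasm. In ectoderm the 2 fractions overlapped, with 23.8, 24.3 and 22.9 CPM in the cytoplasm and 24.1, 21.8 and 29.2 on chromatin; the log2 change was -0.15 (SE 0.13, edgeR adjusted p = 0.335), turned to 0.08 when libraries were scaled to total counts, and was -0.34 (adjusted p = 0.0455) without ectoderm chromatin library 3.

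ATF3 went the other way. In hPSC it gave 46.8, 36.7 and 32.9 CPM in the cytoplasm and 22.2, 22.1 and 25.5 on chromatin, a log2 change of -0.90 (SE 0.17, edgeR adjusted p = 0.000424). In ectoderm it gave 28.2, 23.2 and 28.6 CPM in the cytoplasm against 15.0, 15.6 and 16.5 on chromatin (log2 change -0.98, SE 0.17). In endoderm it gave 25.0, 25.2 and 26.5 CPM against 12.6, 14.1 and 8.25 (log2 change -0.97, SE 0.20). In mesoderm it gave 41.9, 38.6 and 38.6 CPM against 16.8, 15.4 and 28.0 (log2 change -1.19, SE 0.21). No chromatin library overlapped the cytoplasm in CPM in any of the 4, and the 4 calls held without each library in turn and under each alternative fit of the counts. In the authors' TPM the fractions overlapped in 3 of the 4, with 20.7 ± 2.09 TPM (SD, n = 3) on chromatin and 21.7 ± 1.17 in the cytoplasm of hPSC, 23.6 ± 2.38 and 23.1 ± 4.67 in ectoderm, and 25.5 ± 7.91 and 26.2 ± 2.33 in mesoderm. The TPM log2 changes were -0.07, 0.05, -0.53 (endoderm) and -0.07, none of them called with limma. The all-gene TPM medians stood at 0.71, 0.73, 0.33 and 0.85 in these comparisons, and with each library's median set to the same level ATF3 was at -1.07, -0.88, -0.97 and -1.10, called in all 4. ATF3 was thus called lower on chromatin relative to the bulk of genes, with overlapping TPM levels in hPSC, ectoderm and mesoderm.

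FOSL1, a FOS relative induced more slowly by the same signals, gave 41.5, 29.4 and 29.7 CPM in hPSC cytoplasm and 18.6, 23.3 and 21.6 on chromatin (log2 change -0.83, SE 0.22, edgeR adjusted p = 0.00491). In endoderm it gave 7.08, 12.7 and 16.6 CPM in the cytoplasm and 2.60, 2.53 and 3.57 on chromatin (log2 change -1.89, SE 0.34, edgeR adjusted p = 0.000131). In mesoderm it gave 20.6, 21.1 and 19.3 CPM against 8.22, 10.3 and 12.7 (log2 change -1.16, SE 0.24). FOSL1 was thus called in these 3 cell types with no overlap in CPM between fractions. Its TPM values overlapped in hPSC (24.4 ± 3.05 on chromatin, 22.8 ± 1.59 in the cytoplasm) and mesoderm (15.9 ± 2.95 and 15.8 ± 1.58), with TPM log2 changes of 0.09 and -0.004 that were not called, while in endoderm the TPM change of -1.19 was called. With library medians set equal the 3 were -0.91, -1.03 and -1.63, all called. In ectoderm it was near the detection limit, at 0.814 to 1.94 CPM over all its fractions, and missed the threshold (log2 change -0.69, SE 0.33, edgeR adjusted p = 0.0837). Its ectoderm TPM change was 0.22 and not called, or -0.70 and called with library medians set equal.

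The JUN genes differed from each other. JUN, the most studied partner of FOS, was higher on chromatin in hPSC (21.1, 21.7 and 28.5 CPM in the cytoplasm, 39.1, 42.1 and 42.9 on chromatin; log2 change 0.64, SE 0.14, edgeR adjusted p = 0.00124). It was lower on chromatin in ectoderm (log2 change -0.38, SE 0.12, edgeR adjusted p = 0.0154), where the CPM of the fractions overlapped and the change was -0.16 (adjusted p = 0.182) under total-count scaling; in TPM it was higher on ectoderm chromatin, without overlap (0.62, or -0.30 and called with library medians set equal). JUN was not called in endoderm (0.27) or in mesoderm (-0.37, and -0.59 with adjusted p = 0.000699 without mesoderm chromatin library 3, whose 176 CPM stood above the 120 and 112 CPM of the others). JUNB, often an antagonist of JUN, was called in endoderm alone, where cytoplasm libraries gave 12.0, 11.7 and 11.3 CPM and chromatin libraries 24.0, 22.2 and 19.2 (log2 change 1.07, SE 0.16, edgeR adjusted p = 2.02e-05). Its changes elsewhere were 0.40 (hPSC), 0.24 (ectoderm; 0.46 and called under total-count scaling) and -0.20 (mesoderm; 0.10 under that scaling). JUND, the more constantly expressed JUN gene, was called in mesoderm, with 122, 119 and 115 CPM in the cytoplasm and 99.0, 48.0 and 38.0 on chromatin (log2 change -1.18, SE 0.28, edgeR adjusted p = 0.00321). Its first mesoderm chromatin library lay far above the others, and in TPM the fractions overlapped (-0.07, not called, or -1.10 and called with library medians set equal). JUND was not called in hPSC (-0.26, and -0.37 with a call without cytoplasm library 3) or endoderm (-0.45).

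IER2 was higher on chromatin in ectoderm, with 206, 185 and 207 CPM in the cytoplasm and 339, 373 and 363 on chromatin (log2 change 0.63, SE 0.10, edgeR adjusted p = 7.76e-05), and in endoderm, with 132, 151 and 171 CPM against 211, 180 and 189 (log2 change 0.52, SE 0.14, edgeR adjusted p = 0.00281). It was not called in hPSC (0.02) or mesoderm (-0.10, which turned to 0.20 under total-count scaling and 0.003 with DESeq2). EGR1 was called lower on ectoderm chromatin (82.2, 86.0 and 88.6 CPM in the cytoplasm, 84.6, 65.6 and 82.3 on chromatin; log2 change -0.37, SE 0.11, edgeR adjusted p = 0.00889), but the CPM of the fractions overlapped and the call was lost under total-count scaling (-0.15, adjusted p = 0.227); in TPM EGR1 was higher on ectoderm chromatin, without overlap (0.63, or -0.29 and called with library medians set equal). In mesoderm EGR1 gave 83.6, 79.9 and 77.7 CPM in the cytoplasm and 73.7, 82.8 and 143 on chromatin, which overlapped (log2 change 0.10, and -0.23 without chromatin library 3).

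MYC was lower on chromatin in endoderm, where cytoplasm libraries gave 15.6, 29.3 and 30.02 CPM and chromatin libraries 14.0, 11.1 and 13.5 (log2 change -0.79, SE 0.22, edgeR adjusted p = 0.00538). The first endoderm cytoplasm library was close to the chromatin values, and the TPM change of -0.27 was not called (-0.71 and called with library medians set equal). In mesoderm the MYC change was -0.34 (SE 0.13, edgeR adjusted p = 0.0381), with overlapping CPM, and was lost without each library except chromatin library 3 (-0.33 to -0.28), under total-count scaling (-0.05), with DESeq2 (-0.24) and with a replicate block (-0.29); in TPM it was 0.82 and called higher, or -0.20 and not called with library medians set equal. MYCN was lower on mesoderm chromatin, with 127, 113 and 118 CPM in the cytoplasm and 83.8, 75.4 and 84.1 on chromatin (log2 change -0.77, SE 0.13, edgeR adjusted p = 0.000301). Its TPM went the other way without overlap, at 72.5 to 80.2 on mesoderm chromatin and 52.4 to 62.2 in the cytoplasm (0.42, not called with limma); with library medians set equal the change was -0.61 and called. In hPSC neither MYC (-0.06) nor MYCN (0.08) was called, and MYC turned to 0.03 under total-count scaling; in ectoderm MYC (-0.22) and MYCN (-0.08) were not called and turned to 0.0003 and 0.14 under that scaling.

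**Figure D2:**
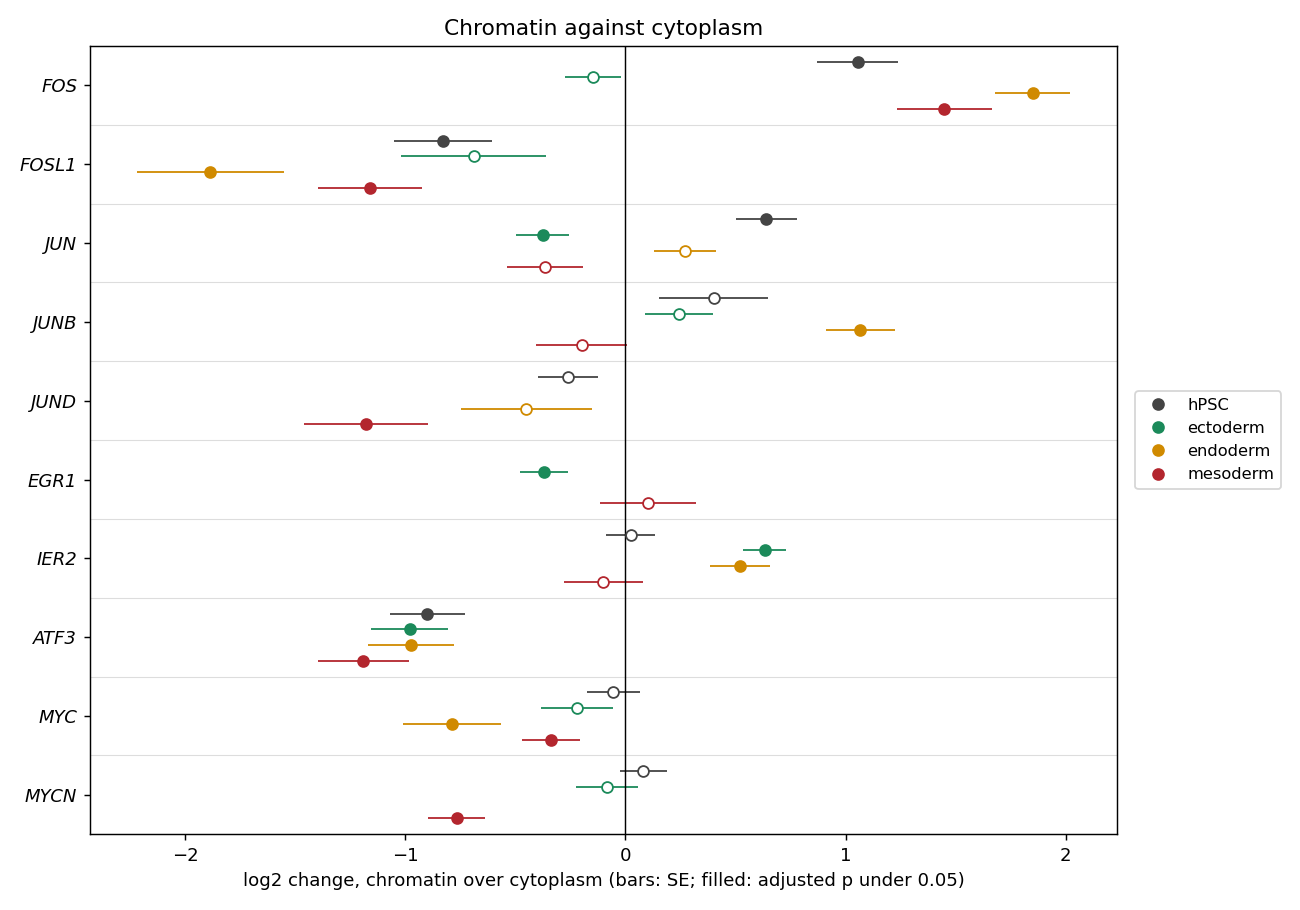
Log2 change of chromatin over cytoplasm (x axis) for each member (y axis) and cell type (colour), with SE bars; filled points had an adjusted p under 0.05. In these counts ATF3 lies left of 0 in all 4 cell types, between -1.19 and -0.90 (0.05 in ectoderm in TPM), and FOS lies right of 0 in hPSC, endoderm and mesoderm, between 1.05 and 1.85.

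Scaling moved these values as a whole. With libraries scaled to total counts in place of TMM factors, the all-gene median of chromatin against cytoplasm moved by 0.22 (ectoderm), -0.13 (endoderm) and 0.29 (mesoderm). For cytoplasm against nucleus it moved by 0.12 (hPSC), 0.35 (ectoderm), 0.72 (endoderm) and -0.12 (mesoderm), and for chromatin against nucleoplasm by 0.16 (hPSC), 0.19 (ectoderm) and 0.62 (endoderm). On chromatin against hPSC it moved by 0.11 (ectoderm) and -0.12 (endoderm), and for the difference of differences described last by -0.12 (endoderm) and 0.15 (mesoderm). Changes are therefore relative to the bulk of genes, and the members whose sign depended on the scaling are named with their values.

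The authors' TPM moved them further, on a log2(TPM + 1) scale that understates the changes of low genes. The all-gene median of TPM changes was 0.71 (hPSC), 0.73 (ectoderm), 0.33 (endoderm) and 0.85 (mesoderm) for chromatin against cytoplasm, and 0.47, 0.49 and 0.40 for chromatin against nucleoplasm in the first 3. For cytoplasm against nucleus it was -0.19, 0.17, 0.29 and -0.83, and against hPSC it lay between 0.17 and 0.28 in the cytoplasm and between -0.23 and 0.20 on chromatin. Of 93 member results called on counts, 78 had the same sign in TPM as deposited and 56 were also called in that direction. With each library's TPM median set to the same level, 92 had the same sign and 82 were also called. The one that turned was ATF3 on ectoderm chromatin against hPSC.

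The second comparison set the cytoplasm against the whole nucleus. In hPSC, 7 of 9 members were called higher in the cytoplasm and none lower, beside 65.7% of all genes called. Of all genes there, 4985 were called higher and 4206 lower. In ectoderm 1 of 9 members was called higher and 4 lower (53.5%), and in endoderm 2 of 8 higher and 5 lower (69.9%). In mesoderm 3 of 10 were higher and 1 lower (63.4%). FOS was lower in the cytoplasm in endoderm and mesoderm, and FOSL1 was higher there in hPSC, endoderm and mesoderm. In mesoderm FOS gave 30.2, 24.3 and 28.6 CPM in the cytoplasm and 75.0, 72.9 and 65.4 in the nucleus (log2 change -1.26, SE 0.21, edgeR adjusted p = 0.000358). In endoderm the CPM of 9.37, 10.8 and 9.71 in the cytoplasm overlapped those of 10.3, 18.4 and 19.3 in the nucleus, and the log2 change was -1.36 (SE 0.17, edgeR adjusted p = 4.48e-06), or -0.67 under total-count scaling. JUNB was also lower in endoderm cytoplasm (log2 change -1.17, SE 0.16, or -0.46 under total-count scaling). In TPM 2 hPSC members were called higher (FOSL1 and JUN) and FOS lower (-0.47), beside an all-gene TPM median of -0.19. In mesoderm none was called higher and 7 lower, beside an all-gene TPM median of -0.83. Both FOS calls held in TPM (-0.93 in endoderm and -2.34 in mesoderm).

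JUN and FOSL1 stood apart in hPSC. The hPSC nucleus libraries gave 10.5, 7.84 and 7.67 CPM for JUN, below the cytoplasm (log2 change 1.39, SE 0.15, edgeR adjusted p = 2.46e-06). They also lay below the nucleoplasm at 33.0, 34.9 and 31.6 CPM and the chromatin at 39.1 to 42.9 CPM, although both are parts of the nucleus. FOSL1 gave 12.5, 5.99 and 7.23 CPM in the nucleus, below the cytoplasm (log2 change 1.92, SE 0.23, edgeR adjusted p = 8.49e-06), the nucleoplasm (17.3, 21.03 and 20.1 CPM) and the chromatin (18.6 to 23.3 CPM). These 2 of 9 members had every nucleus library under every nucleoplasm and chromatin library in hPSC, a pattern held by 15.5% of all 13987 genes there. In ectoderm FOS alone had it, with 15.3, 13.8 and 16.3 CPM in the nucleus and 20.4 to 29.2 CPM in the 2 parts, beside 37.9% of all genes. In endoderm no member had it, beside 21.5% of all genes. The hPSC nucleus libraries also carried 13.1% to 15.3% mitochondrial counts against 4.51% to 5.80% on chromatin; the part of this in the pattern was not tested.

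The other hPSC calls were small. ATF3 (0.57), JUND (0.43), IER2 (0.35), MYC (0.31) and MYCN (0.26) were called higher in the cytoplasm, but MYC and MYCN were lost without each of the 6 libraries in turn (0.10 to 0.33 over both genes) and with DESeq2 (0.24 and 0.19). IER2 and JUND were each lost without any 1 nucleus library or cytoplasm library 1 (0.20 to 0.25 and 0.22 to 0.38), and ATF3 without nucleus library 2 (0.30), nucleus library 3 (0.48) or cytoplasm library 1 (0.29). In TPM none of the 5 was called and JUND (-0.01), MYCN (-0.16), MYC (-0.10) and IER2 (-0.02) lay below 0; with library medians set equal all but MYCN (0.26) were called. Neither FOS (-0.10) nor JUNB (-0.01) was called in hPSC, and both were above 0 under total-count scaling (0.02 and 0.11).

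In ectoderm MYC (-0.70), JUN (-0.50), MYCN (-0.50) and JUNB (-0.50) were called lower in the cytoplasm, and all 4 calls were lost under total-count scaling (-0.33, -0.15, -0.16 and -0.15); that of JUNB was also lost without ectoderm cytoplasm library 2 (-0.44). In TPM the 4 were -0.36, -0.21, -0.21 and -0.20 and not called, and with library medians set equal all were called. FOS was called higher in ectoderm cytoplasm (0.34), with 22.9 to 24.3 CPM against 13.8 to 16.3, and this call was lost with DESeq2 (0.30), with no filter on low counts (0.31), with a replicate block (0.35) and without nucleus library 1 or any 1 cytoplasm library (0.26 to 0.38); in TPM it was 0.57 and called, or 0.18 and not called with library medians set equal. JUND, counted for ectoderm only in a combined assembly, was -0.66 (SE 0.20, edgeR adjusted p = 0.0147) there. Of the other members IER2 (-0.23) and FOSL1 (-0.32) were not called and turned to 0.10 and 0.05 under total-count scaling, though IER2 was called with DESeq2 (-0.27) and with no filter (-0.26). EGR1 (0.08; 0.42 and called under total-count scaling) was not called, nor was ATF3 (-0.39), which was called without ectoderm nucleus library 1 (-0.55), with DESeq2 (-0.43), with no filter (-0.41) and in the combined assembly (-0.45).

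In endoderm IER2 (-0.72), JUND (-0.74) and JUN (-0.50) were called lower in the cytoplasm, with overlapping CPM in each case. Under total-count scaling IER2 was -0.02 and not called, and JUND and JUN turned to 0.05 and 0.23; JUND was also lost without nucleus library 1 (-0.31), cytoplasm library 2 (-0.66) or cytoplasm library 3 (-0.65). In TPM none of the 3 was called (-0.34, -0.33 and -0.18). ATF3 was higher in endoderm cytoplasm (0.62, SE 0.19), with 25.0 to 26.5 CPM against 8.19 to 12.2 in the nucleus, and so was FOSL1 (1.08, SE 0.32; 0.79 and not called without cytoplasm library 3). MYC was 0.26 and not called, with a call without cytoplasm library 1 (0.52) and under total-count scaling (0.99). In mesoderm JUND (0.94, SE 0.28), ATF3 (0.93, SE 0.20) and FOSL1 (0.67, SE 0.23) were called higher in the cytoplasm. In TPM all 3 lay below 0 (-0.21, -0.20 and -0.425) with overlapping fractions and no call, and with library medians set equal they were 0.82, 0.83 and 0.61 and called. The FOSL1 call there was lost without nucleus library 1 or 2 or cytoplasm library 2 or 3 (0.52 to 0.65) and under total-count scaling (0.54), and its CPM overlapped. JUN (0.08 in mesoderm) turned to -0.04 under total-count scaling and, with EGR1 (-0.07), IER2 (-0.11), JUNB (-0.09), MYC (-0.28) and MYCN (0.22), was not called; MYC was called under total-count scaling (-0.40) and with DESeq2 (-0.32).

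**Figure D3:**
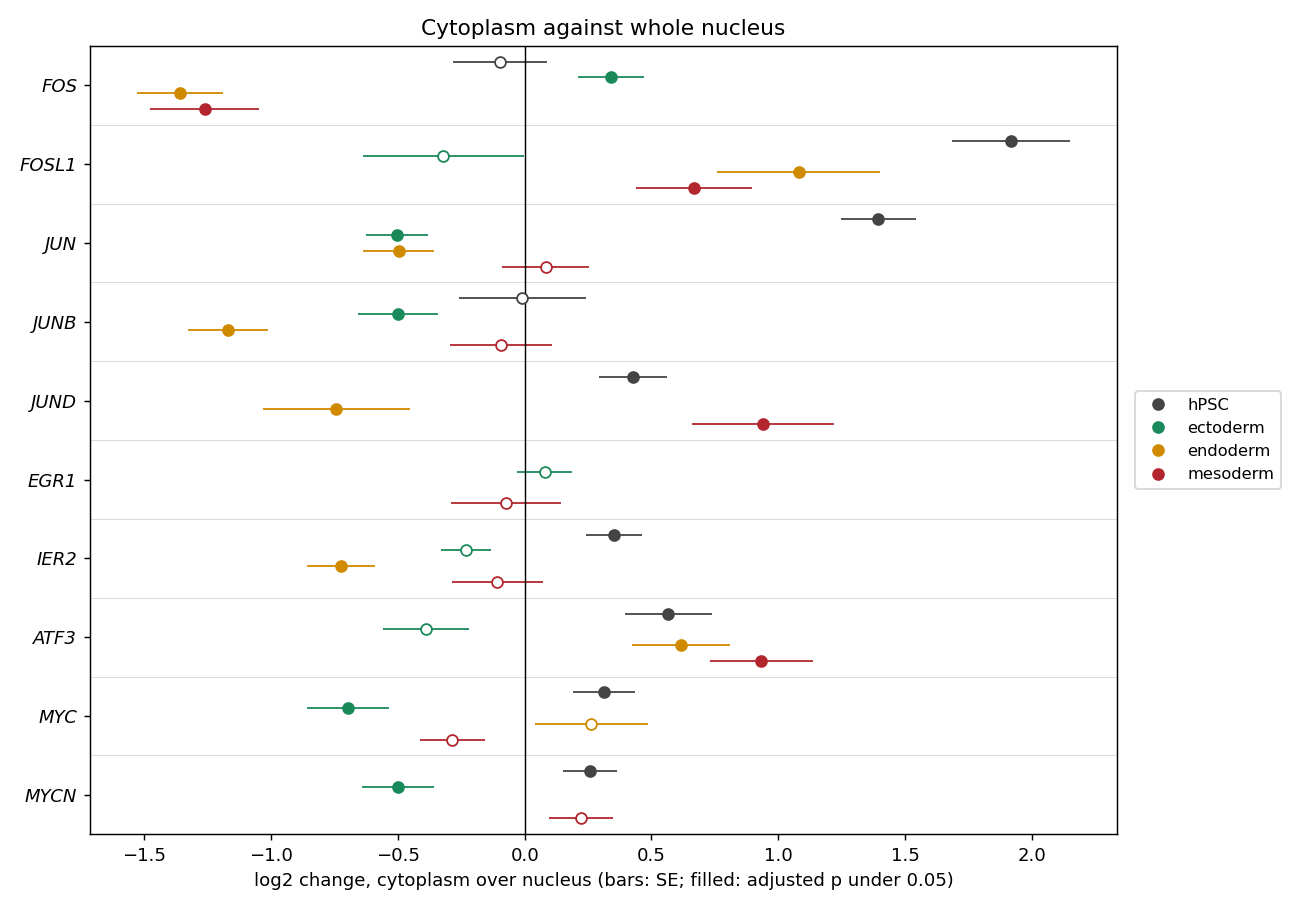
Log2 change of cytoplasm over whole nucleus (x axis) for each member (y axis) and cell type (colour), with SE bars; filled points had an adjusted p under 0.05. FOSL1 and JUN in hPSC lie at 1.92 and 1.39, while FOS lies at -1.36 in endoderm and -1.26 in mesoderm.

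Within the nucleus, chromatin was set against nucleoplasm in the 3 cell types with 3 libraries of each. Over all genes, 2399 of 13987 were called higher on chromatin in hPSC, 3375 of 15655 in ectoderm and 2919 of 12681 in endoderm. All called members were higher on chromatin. They were 4 of 9 for hPSC (30.7% of all genes called in either direction) and 1 of 9 for ectoderm (43.3%). For endoderm they were 4 of 8 (53.7%). In hPSC these were FOS (0.77, SE 0.18), JUNB (0.74, SE 0.25), JUND (0.64, SE 0.14) and IER2 (0.40, SE 0.11). The FOS values were 18.6, 18.96 and 22.1 CPM in the nucleoplasm and 33.0, 35.7 and 51.3 on chromatin. JUN (0.08), MYC (0.21), MYCN (0.25) and FOSL1 (-0.12) were not called there. The JUNB call was lost without nucleoplasm library 1 or 2 or chromatin library 1 or 3 (0.53 to 0.70) and with TPM medians set equal (0.60), and the IER2 call without nucleoplasm library 1 (0.34) or 2 (0.37). In ectoderm IER2 was called (0.51, SE 0.10), with 209, 218 and 229 CPM in the nucleoplasm and 339, 373 and 363 on chromatin. The other 8 ectoderm members were FOS (0.01), FOSL1 (-0.12), JUN (-0.12), JUNB (0.16), EGR1 (-0.25), ATF3 (-0.31), MYC (-0.29) and MYCN (0.27). In endoderm FOS rose from 12.3, 9.60 and 9.15 CPM to 33.2, 32.2 and 30.6 (1.05, SE 0.17, edgeR adjusted p = 9.51e-05), JUNB from 7.11, 7.79 and 8.77 to 24.0, 22.2 and 19.2 (0.89, SE 0.16), IER2 by 0.49 (SE 0.14) and JUN by 0.41 (SE 0.14; lost without any 1 nucleoplasm library or chromatin library 1, 0.34 to 0.43). JUND (-0.08), MYC (-0.16) and FOSL1 (-0.15) were not called in endoderm. These called rises kept their sign under total-count scaling and were larger there, and in the authors' TPM all were called. ATF3, which was low on chromatin beside the cytoplasm, was -0.01 in hPSC and -0.03 in endoderm against the nucleoplasm and not called, and turned to 0.15 and, with a call, 0.59 under total-count scaling.

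The transcript forms of a gene can divide unequally between fractions. IER2 was counted as a spliced transcript (ENST00000292433; exons at chr19:13150433-13150552 and chr19:13152944-13154908, GRCh38) and a single-exon transcript (ENST00000588173; chr19:13151975-13154908) that starts inside the intron of the first and runs on through its last exon. In ectoderm the single-exon form took 28.5%, 29.8% and 26.6% of the gene's counts in the cytoplasm libraries and 61.0%, 51.4% and 63.7% on chromatin. In endoderm it took 18.1% ± 3.43 (SD, n = 3) in the cytoplasm and 46.1% ± 2.89 on chromatin, and in mesoderm 19.4% ± 3.73 and 33.8% ± 9.04. In hPSC it took 13.3% ± 1.67 and 17.9% ± 2.23. In all 4 cell types the chromatin libraries lay above the cytoplasm libraries without overlap; with 3 against 3 the exact two-sided permutation p was 0.1, the smallest this design allows (0.117 adjusted over 14 such tests). Over the whole nucleus the ectoderm share was 21.7% ± 5.47, below the cytoplasm. The nucleus share lay above the cytoplasm without overlap in hPSC (23.0% ± 2.55), endoderm (32.7% ± 5.61) and mesoderm (31.5% ± 2.33). How reads were divided between forms is not stated, so a share is less certain than the gene's sum.

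In hPSC, ATF3 was counted partly as ENST00000465155, which GENCODE v29 types as a transcript with a retained intron. It took 5.90%, 12.9% and 8.27% of ATF3 counts in the cytoplasm and 18.8%, 25.0% and 26.0% on chromatin, from 23 to 71 and 66 to 85 counts per library, again with no overlap and an exact permutation p of 0.1. No form other than these of IER2 and ATF3 was tested. The MYC form ENST00000707115 also took a larger share on chromatin than in the cytoplasm, without overlap, in hPSC, ectoderm and mesoderm. Its ectoderm shares were 26.7% to 37.2% on chromatin and 6.61% to 17.9% in the cytoplasm. In endoderm its shares overlapped. An ATF3 form without an Ensembl transcript ID took 7.8% to 13.1% on mesoderm chromatin and 0.77% to 3.17% in the cytoplasm. MYCN was counted mainly on a form without an Ensembl transcript ID, which took 84.1% of its counts in hPSC cytoplasm and 86.8% on hPSC chromatin. The antisense genes AC011446.2 and MYCNOS overlap IER2 and MYCN on the opposite strand in GENCODE v29, and the gene HOOK2 overlaps JUNB. Since the counting is not stated to use strand, reads of these pairs cannot be told apart.

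**Figure D4:**
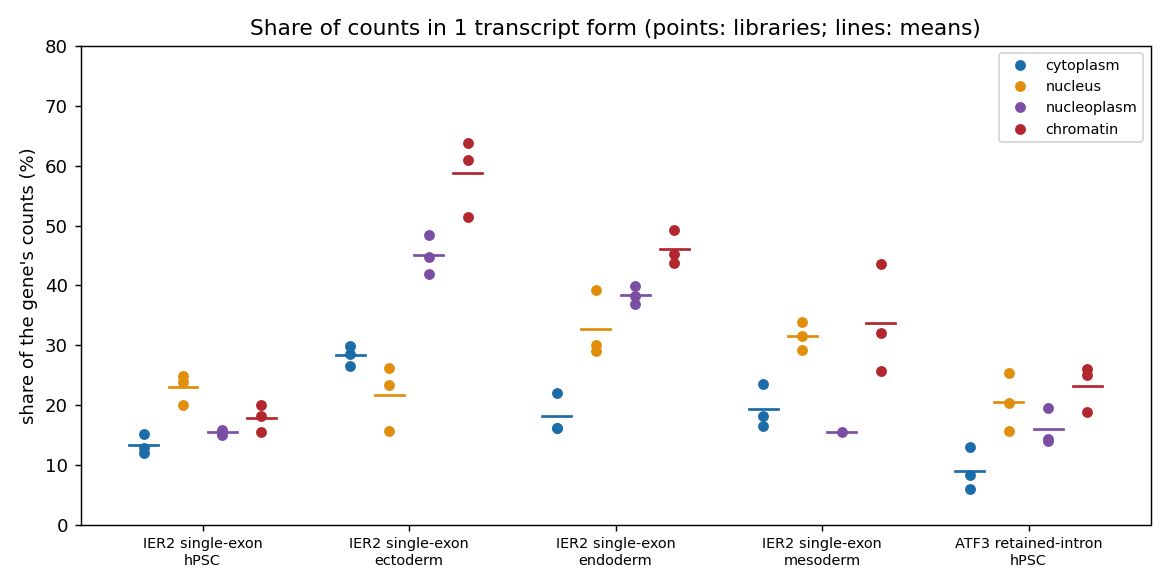
Share (%) of IER2 counts in its single-exon form in the 4 cell types, and of ATF3 counts in its retained-intron form in hPSC, for each library (points) and group mean (lines), by fraction (colour). In ectoderm the IER2 share is 51.4% to 63.7% on chromatin and 26.6% to 29.8% in the cytoplasm.

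The derived cells were then set against hPSC, first in the cytoplasm, over the 10673 genes tested in all 4 cell types. These comparisons share the hPSC libraries, and the assembly changes with the cell type. MYC and FOSL1 were lower than in hPSC in each of the 3 derived cell types, JUN was higher in each, and FOS was higher in ectoderm and mesoderm and lower in endoderm. Of 7 members tested, 3 were called higher and 4 lower in ectoderm (76.0% of all genes called), 2 higher and 5 lower in endoderm (58.1%), and 3 higher and 3 lower in mesoderm (68.1%). The members' median log2 changes were -0.26, -0.77 and -0.02, beside all-gene medians within 0.01 of 0.

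MYC gave 62.9, 65.2 and 75.5 CPM in hPSC cytoplasm. In ectoderm it gave 12.9, 13.4 and 12.3 CPM, a log2 change of -2.48 (SE 0.20, edgeR adjusted p = 3.03e-08). In endoderm it gave 15.6, 29.3 and 30.02 CPM (-1.61, SE 0.19, edgeR adjusted p = 5.64e-06) and in mesoderm 47.5, 38.8 and 38.8 (-0.76, SE 0.19, edgeR adjusted p = 0.00229). No derived library reached an hPSC library. MYCN, tested with 2 groups at a time because the endoderm table lacked it, gave 148, 148 and 148 CPM in hPSC cytoplasm, 31.5, 26.0 and 26.4 in ectoderm (-2.52, SE 0.11, edgeR adjusted p = 6.27e-08; 73.3% of all genes called in that fit) and 127, 113 and 118 in mesoderm (-0.39, SE 0.09, edgeR adjusted p = 0.0036; 65.9%; -0.14 and not called in TPM). Both MYC genes were thus lowest in ectoderm among the cell types in which both were counted.

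JUN gave 21.1, 21.7 and 28.5 CPM in hPSC cytoplasm and 156, 148 and 150 in mesoderm (log2 change 2.61, SE 0.12, edgeR adjusted p = 9.75e-11), the members' largest rise over hPSC. It gave 55.2, 51.0 and 53.4 CPM in ectoderm (1.07, SE 0.11; 2.00 in TPM) and 51.5, 44.5 and 40.9 in endoderm (0.76, SE 0.11). JUND gave 31.5, 30.5 and 26.0 CPM in hPSC; with 2 groups at a time it was higher in mesoderm (122, 119 and 115 CPM; 1.95, SE 0.11, edgeR adjusted p = 1.22e-06) and lower in endoderm (15.1, 10.5 and 10.3 CPM; -1.46, SE 0.18, edgeR adjusted p = 8.06e-05; 50.9% of all genes called). JUND was counted in each table on 1 assembled form without an Ensembl transcript ID, and the endoderm fall was not found per length: TPM was 35.8 ± 3.15 in hPSC and 43.9 ± 10.1 in endoderm (0.27, or -0.11 with library medians set equal, neither called). The mesoderm rise was called in TPM (1.91). JUNB changes were 0.46 (ectoderm), 0.49 (endoderm) and 0.74 (mesoderm), all called; the ectoderm call was lost without hPSC library 2 or 3 or ectoderm library 1 or 3 (0.32 to 0.45), the endoderm call without hPSC library 2 (0.30), hPSC library 3 (0.48) or endoderm library 1 (0.48), and both with 2 groups at a time (0.43 and 0.49); with TPM medians set equal the endoderm change was 0.27 and not called. In the combined assembly, where alone it was counted for ectoderm, JUND gave 123 to 137 CPM in ectoderm cytoplasm, above the mesoderm values, but on another assembly. The mesoderm libraries of JUN stood clear of those of the other cell types, while those of JUNB overlapped the ectoderm and endoderm libraries. Those of JUND stood clear of hPSC and endoderm, with no ectoderm value on a like assembly.

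FOSL1 gave 41.5, 29.4 and 29.7 CPM in hPSC cytoplasm and 1.40, 1.94 and 1.52 in ectoderm (log2 change -4.42, SE 0.30, edgeR adjusted p = 4.4e-09), the members' largest fall. It fell by 1.63 (SE 0.24) in endoderm and by 0.77 (SE 0.24) in mesoderm on the log2 scale. FOS gave 18.7, 14.1 and 18.97 CPM in hPSC cytoplasm, and 9.37 to 10.8 in endoderm (-0.96, SE 0.14, edgeR adjusted p = 4.54e-05), 24.3 to 30.2 in mesoderm (0.63, SE 0.14, edgeR adjusted p = 0.000754) and 22.9 to 24.3 in ectoderm (0.38, SE 0.14, edgeR adjusted p = 0.0184). The ectoderm call of FOS was lost without hPSC library 2 (0.26) or ectoderm library 2 (0.30) and with 2 groups at a time (0.35). ATF3 was lower in ectoderm (-0.62) and endoderm (-0.77) and not called in mesoderm (-0.02). The ectoderm table counted ATF3 only on transcript ENST00000613104, while in hPSC cytoplasm 91.0% of its counts were on ENST00000341491, and the ectoderm difference was not found in TPM (21.7 ± 1.17 in hPSC and 23.1 ± 4.67 in ectoderm; 0.07, or -0.18 with library medians set equal, neither called). In the combined assembly ectoderm cytoplasm averaged 33.3 CPM of ATF3, against 26.7 in the ectoderm table and 38.8 for hPSC in the hPSC table. The endoderm change was -0.40 in TPM and not called, or -0.79 and called with library medians set equal. IER2 was lower in endoderm (-0.74), mesoderm (-0.45) and ectoderm (-0.26); the last was lost without each library except hPSC library 2 (-0.27 to -0.23) and under total-count scaling (-0.17). In TPM the ectoderm and mesoderm changes of IER2 (-0.02 and -0.22) were not called. EGR1 could not be set against hPSC, and its cytoplasmic values in ectoderm (82.2, 86.0 and 88.6 CPM) and mesoderm (83.6, 79.9 and 77.7) overlapped. Heat shock genes (HSPA1A, HSPA1B, DNAJB1 and HSPH1), a sign of stress during handling, summed to 415 to 514 CPM in hPSC cytoplasm, 688 to 722 in ectoderm, 426 to 455 in endoderm and 370 to 396 in mesoderm. In the nucleus they summed to 294 to 305 CPM in hPSC, 638 to 723 in ectoderm, 285 to 312 in endoderm and 560 to 635 in mesoderm. Their part in the members' levels was not tested.

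On chromatin, 1 of 7 members was called higher and 4 lower in ectoderm (62.9% of all genes called), 2 higher and 3 lower in endoderm (61.9%), and 2 higher and 2 lower in mesoderm (54.6%). MYC gave 71.9, 71.2 and 75.7 CPM on hPSC chromatin and 12.7, 12.1 and 13.8 in ectoderm (log2 change -2.50, SE 0.15), 14.0, 11.1 and 13.5 in endoderm (-2.32, SE 0.15) and 40.1, 33.3 and 41.2 in mesoderm (-0.83, SE 0.14). FOSL1 log2 changes on chromatin were -4.15 (SE 0.28) for ectoderm, -2.67 (SE 0.25) for endoderm and -0.90 (SE 0.23) for mesoderm. FOS was higher on mesoderm chromatin, at 118, 86.3 and 59.6 CPM against 33.0, 35.7 and 51.3 in hPSC (1.24, SE 0.24, edgeR adjusted p = 0.000642), and JUN likewise, at 120, 112 and 176 against 39.1, 42.1 and 42.9 (1.82, SE 0.17, edgeR adjusted p = 1.21e-06). JUNB was higher on endoderm chromatin (1.17, SE 0.23), and ATF3 lower (-0.83, SE 0.23). FOS (-0.14) and IER2 (-0.22) were not called on endoderm chromatin, nor were IER2 (-0.36; -0.51 and called without mesoderm library 1), ATF3 (-0.11) and JUNB (0.35) on mesoderm chromatin, or JUN (0.21) and JUNB (0.44; 0.67 and called without hPSC library 3) on ectoderm chromatin. In TPM both were called higher on ectoderm chromatin (1.22 and 0.70, or 1.08 and 0.55 with library medians set equal).

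Several chromatin calls were weaker. In ectoderm those of FOS (-0.68), ATF3 (-0.56) and IER2 (0.49) were not stable: FOS was lost without hPSC library 3 (-0.45) or ectoderm library 1 (-0.63) or 2 (-0.62), ATF3 without any 1 of the 6 libraries (-0.61 to -0.48), and IER2 without any except hPSC library 3 (0.42 to 0.55). FOS (-0.56) and ATF3 (-0.45) were also lost under total-count scaling, and IER2 (0.49) and ATF3 (-0.56) with a replicate block. In TPM ATF3 turned to 0.19 and FOS was -0.35, neither called; with library medians set equal ATF3 (0.04), FOS (-0.50) and IER2 (0.42) were not called. JUN on endoderm chromatin (0.42) was lost without any except hPSC library 3 (0.37 to 0.46) and under total-count scaling (0.30). With 2 groups at a time MYCN was lower on ectoderm chromatin (-2.49, SE 0.12; 69.8% of all genes called) and mesoderm chromatin (-0.999, SE 0.21; 42.9%), and JUND was lower on endoderm chromatin (-1.57, SE 0.18; 63.7%) and higher on mesoderm chromatin (1.28, SE 0.34). Per length the endoderm fall was smaller, from 56.3 ± 3.16 to 40.7 ± 6.58 TPM (-0.47 and called, or -0.29 and not called with library medians set equal), and the mesoderm rise was 1.20 and called, or 0.87 and not called.

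**Figure D5:**
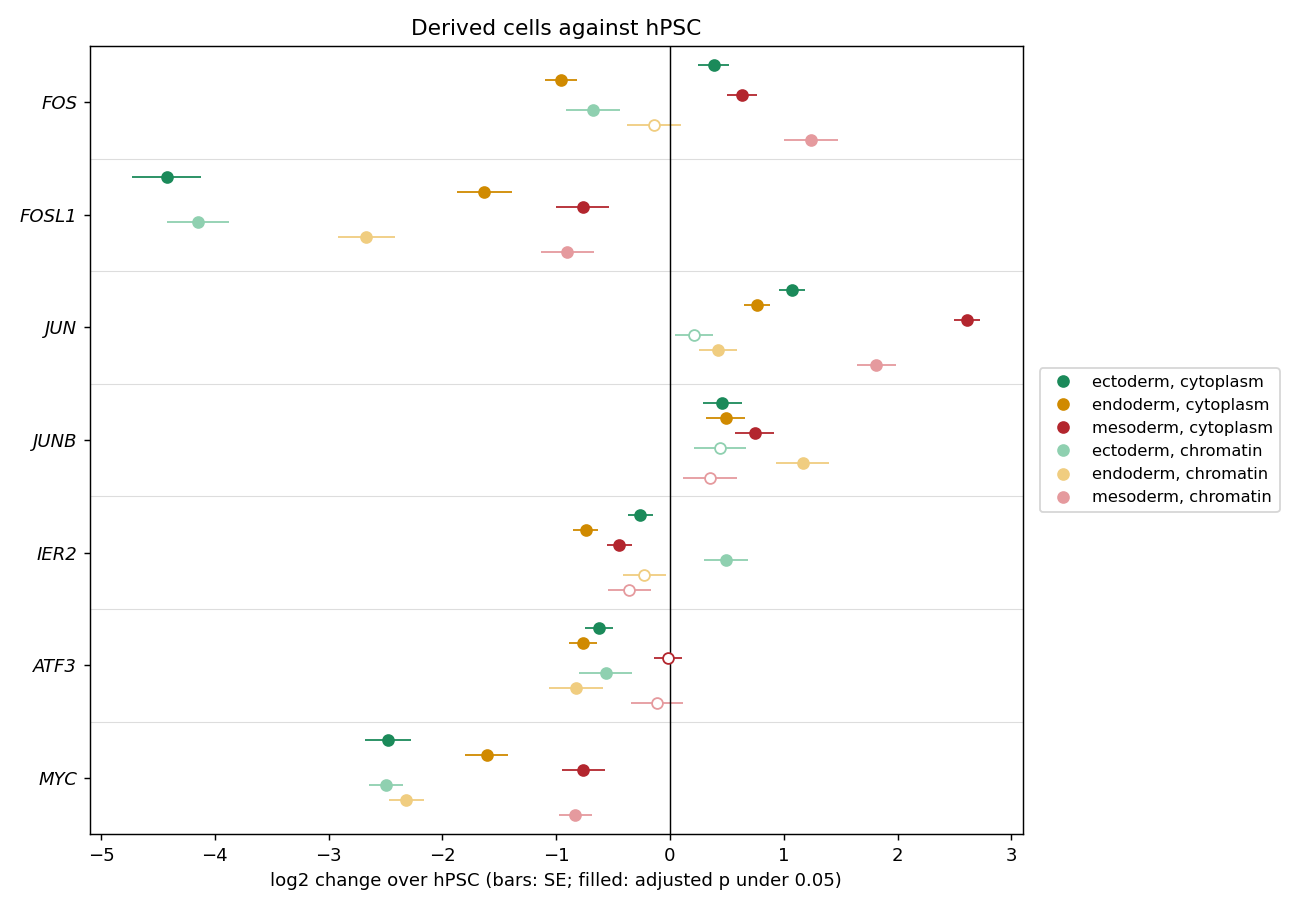
Log2 change over hPSC (x axis) of the 7 members present in all 4 tables (y axis), for each derived cell type in the cytoplasm (dark) and on chromatin (light), with SE bars; filled points had an adjusted p under 0.05. MYC and FOSL1 lie left of 0 in all 6 comparisons, and JUN reaches 2.61 in mesoderm cytoplasm.

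Whether the chromatin-to-cytoplasm difference itself changed was tested as a difference of differences against hPSC. In ectoderm 1 of 7 members was called higher and 2 lower (23.2% of 10689 genes called). In endoderm 1 was higher and 2 lower (40.8%), and in mesoderm none was higher and 1 lower (23.0%). The all-gene medians of this difference were -0.08, -0.21 and -0.16, so values below 0 were common to many genes. On counts JUN was higher on chromatin than in the cytoplasm in hPSC, and its change lay below 0 in ectoderm and mesoderm. The log2 difference from hPSC was -0.94 in ectoderm (SE 0.20, edgeR adjusted p = 0.0015). In mesoderm it was -0.92 (SE 0.20, edgeR adjusted p = 0.00223). Both calls held without each of the 12 libraries in turn. In TPM neither was called (-0.78 and -0.62), and both were with library medians set equal (-0.67 and -0.64). The difference of FOS was lower in ectoderm than in hPSC (-1.13, SE 0.28, edgeR adjusted p = 0.00533), also without each library. In endoderm the FOS difference was higher (0.73, SE 0.29, edgeR adjusted p = 0.0461). The endoderm call was lost without any library except hPSC chromatin 3 and hPSC cytoplasm 2 (0.61 to 0.80). It was also lost under total-count scaling (0.62), with a replicate block (0.73) and in TPM (0.27). The difference of IER2 was higher in ectoderm than in hPSC (0.68, SE 0.22, edgeR adjusted p = 0.0246). The IER2 call was lost without hPSC chromatin 1 or 2, hPSC cytoplasm 1, ectoderm chromatin 2 or ectoderm cytoplasm 1 (0.60 to 0.67). It was also lost in TPM (0.58). The difference of MYC was lower in endoderm than in hPSC (-0.79, SE 0.25, edgeR adjusted p = 0.0162). That of FOSL1 was lower there too (-1.12, SE 0.36, edgeR adjusted p = 0.0182). The MYC call was lost without endoderm cytoplasm library 2 (-0.66) or 3 (-0.63), with DESeq2 (-0.54) and with the 2 cell types alone (-0.79, adjusted p = 0.0506), and the FOSL1 call without endoderm cytoplasm library 3 (-0.81) and with DESeq2 (-0.87); both were also lost with TPM medians set equal (-0.52 and -0.70). The members not called were MYC (-0.09), ATF3 (-0.01), JUNB (-0.09) and FOSL1 (0.21) in ectoderm, JUNB (0.60), IER2 (0.43), JUN (-0.43) and ATF3 (-0.14) in endoderm, and FOS (0.47), JUNB (-0.52), FOSL1 (-0.25), ATF3 (-0.22), MYC (-0.20) and IER2 (-0.04) in mesoderm. MYCN could be tested only with the 2 cell types alone. Its difference was lower in mesoderm (-0.74, SE 0.20, edgeR adjusted p = 0.0335) and not called in ectoderm (-0.03). JUND, tested likewise, was not called in endoderm (-0.25) or mesoderm (-0.81).

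The rest of the pathway was counted in lists of genes. In the cytoplasm against hPSC, 76.0% (ectoderm), 58.1% (endoderm) and 68.1% (mesoderm) of all genes were called, with medians within 0.01 of 0. Of 10673 genes, 4060, 3152 and 3696 were called higher there and 4048, 3050 and 3568 lower. On chromatin the shares were 62.9%, 61.9% and 54.6%, with medians of -0.05, -0.07 and -0.03. The counts of each list are to be read beside these. Of 12 textbook MYC targets, all tested, 10 were lower and 1 higher than hPSC in ectoderm cytoplasm, 8 lower and 2 higher in endoderm, and 10 lower and 1 higher in mesoderm, with list medians of -1.30, -0.44 and -0.91. NOP56, a ribosome assembly protein, was -2.29 (SE 0.12) in ectoderm, -1.03 (SE 0.12) in endoderm and -1.60 (SE 0.12) in mesoderm. LDHA, lactate dehydrogenase A, was -1.36 (SE 0.16) in endoderm and -3.04 (SE 0.17) in mesoderm, while CCND2, cyclin D2, rose by 1.34 (SE 0.10) in ectoderm. On chromatin 11, 8 and 9 of the 12 were lower and 1 higher in each, with medians of -1.55, -1.33 and -1.18. Of the MYC network, 14 genes were tested, of which 6 were higher and 6 lower in ectoderm cytoplasm, 6 and 3 in endoderm, and 6 and 4 in mesoderm, with medians of 0.06, 0.21 and 0.18. MXD4, which competes with MYC for MAX, was higher in all 3 (1.76, 1.64 and 1.70, SE 0.10 each).

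Of 26 other immediate early genes tested in the cytoplasm, 15 were called higher and 7 lower for ectoderm against hPSC, with 19 and 4 for endoderm and 16 and 4 for mesoderm, with medians of 0.55, 0.97 and 0.80 beside all-gene medians near 0. In mesoderm CCN1 (3.29, SE 0.12) and CCN2 (3.07, SE 0.13), secreted matrix proteins, RHOB (2.81, SE 0.12) and KLF6 (2.91, SE 0.15) had the smallest adjusted p. In ectoderm BTG2 rose by 2.65 (SE 0.11) while DUSP5, a phosphatase of ERK, was -1.87 (SE 0.12). Against the cytoplasm, 6 of these genes were higher and 5 lower on chromatin of 32 for hPSC, 5 and 15 of 35 for ectoderm, 8 and 12 of 27 for endoderm, and 3 and 17 of 33 for mesoderm, beside 63.8%, 61.9%, 73.0% and 66.2% of all genes called. The list medians were 0.05, -0.29, -0.17 and -0.52, beside 0.08, 0.09, 0.05 and -0.02 over all genes. CCN1 was higher on chromatin in all 4 (2.20, 0.82, 2.24 and 1.64), as FOS was in 3.

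Among 15 other AP-1 and bZIP partners tested in the cytoplasm, 9 were higher and 5 lower in ectoderm, 3 and 6 in endoderm, and 9 and 4 in mesoderm, with medians of 1.10, -0.15 and 0.55 (76.0%, 58.1% and 68.1% of all genes called, as above). FOSL2, another FOS relative, rose by 2.54 (SE 0.14), 2.00 (SE 0.14) and 2.81 (SE 0.14), in the 3 cell types in which FOSL1 fell. ATF5 was -4.35 (SE 0.23), -1.69 (SE 0.20) and -2.65 (SE 0.21). Of 18 genes of the ERK, SRF and stress kinase pathways upstream, 8 were higher and 3 lower in ectoderm, 6 and 2 in endoderm, and 7 and 4 in mesoderm, with medians of 0.26, 0.14 and 0.07 and a share called under that of all genes in each. ELK3, a partner of serum response factor, rose by 1.59 (SE 0.17) in endoderm and 2.58 (SE 0.17) in mesoderm. Of 16 genes for AU-rich element binding and mRNA decay, 6 were higher and 7 lower in ectoderm, 2 and 3 in endoderm, and 4 and 8 in mesoderm, with medians of 0.06, 0.015 and -0.235 beside the same shares of all genes called; HNRNPD, which binds AU-rich elements, was lower in all 3 (-1.25, -0.29 and -0.81).

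The genes whose pattern over the 16 group means was most like a member's were found by Pearson's r of log2(mean CPM + 1) among 10050 genes with a mean of at least 5 CPM. This is a description, in which the points share libraries, depth and cell type. For FOS they were MAP3K14 (r = 0.926), ADAM33 (0.913) and MORN1 (0.9), for JUN PXN (0.932), PLK2 (0.922) and CAPN2 (0.909), and for JUNB FLYWCH1 (0.944), GPSM1 (0.940) and FCSK (0.931). For ATF3 they were NTPCR (0.981), YBX3 (0.953) and DBNDD2 (0.942), for IER2 KANSL2 (0.926), SMG9 (0.923) and CACTIN (0.897), for MYC GPR176 (0.961), INAFM2 (0.947) and FMNL1 (0.941), and for FOSL1 ZNF425 (0.965), EMSLR (0.944) and WDR1 (0.936). Among the members themselves MYC and FOSL1 had the highest r (0.920), followed by FOS and JUN (0.662), and MYC and JUNB the lowest (-0.380).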

How the data were processed

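RNA was sequenced from 46 libraries of cell fractions. The authors deposited whole-number counts per assembled transcript and, separately, TPM values, which correct for length; per the submitters' processing notes the build is hg38 and the tools include STAR and RSEM, whose roles and versions are not given in the sources used here, so the counts may be rounded estimates. Transcripts were summed per Ensembl gene. Rows without an Ensembl gene held 0.277% to 9.60% of counts; they stayed in the total behind CPM and out of the tests. A further 1 column of library values could not be tied to a sample and was left unused.

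Tests used edgeR 4.0.16 in R 4.3.3: TMM, filterByExpr with a minimum count of 10, the two-sided quasi-likelihood F test and Benjamini-Hochberg adjustment over all genes tested, called under 0.05. The SE is the log2 change divided by the square root of F. Fractions were compared in a fit of every library of that cell type. Cell types were compared in a fit of the cytoplasm, the chromatin or both across all 4, over the 10701 genes in every table. Alternatives were DESeq2 1.42.0, total-count scaling, no filter, a replicate block, the combined assembly, 2 groups at a time and leaving out each library; a fit with 2 cell types alone and limma 3.58.1 on the deposited log2(TPM + 1), with and without centring each library on its median, were added after seeing the data. The edgeR and limma steps were tested on simulated data. Of 45 replicate pairs, 0 were identical, and even the closest pair differed by more than sampling noise (chi-squared 4.08 times its degrees of freedom).

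The members, the gene lists and the tests were chosen with earlier results of these data known. All 10 members are named in each comparison where they had values; of each list, up to 4 called genes with the smallest adjusted p could be named per comparison. Promoters came from a RefSeq table (GRCh38.p14) in which 8 members were matched by symbol. Intervals are not given, since replicate spread exceeded counting error; PCR copies are not independent molecules.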

Additional observations from a re-analysis of the deposited data

Results flagged for a closer look

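The chromatin-to-cytoplasm difference of 5 members differed from that of hPSC by the test of the difference itself. Of 7 members tested, 3 were called in ectoderm, 3 in endoderm and 1 in mesoderm, beside 23.2%, 40.8% and 23.0% of all genes. In ectoderm the log2 differences were -1.13 for FOS, -0.94 for JUN and 0.68 for IER2. In endoderm they were -0.79 for MYC, 0.73 for FOS and -1.12 for FOSL1, and in mesoderm -0.92 for JUN. The FOS difference was thus lower in ectoderm and higher in endoderm than in hPSC. The endoderm value missed the threshold when most single libraries were left out. The IER2, MYC and FOSL1 calls were also lost without some single libraries. Those of MYC and FOSL1 were lost with DESeq2 too.

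The cytoplasm-to-nucleus CPM of some members pointed one way in every hPSC library and the other way in every library of a derived cell type. This difference was not tested, and the share of all genes that turned in the same way is not given. JUN and MYC were higher in the cytoplasm than in the nucleus in hPSC and lower in ectoderm, where the log2 changes were -0.50 and -0.70. IER2 and MYC were likewise higher in hPSC cytoplasm and lower in mesoderm cytoplasm, with log2 changes of -0.11 and -0.28 that were not called. The hPSC call of MYC was lost without each library in turn, and that of IER2 without 4 of 6 libraries. The ectoderm calls of JUN and MYC were lost under total-count scaling. In the authors' TPM the hPSC changes of IER2 (-0.02) and MYC (-0.10) lay below 0 and were not called. The mitochondrial share was also turned round between mesoderm and the other cell types, and its part in these values was not tested.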

How the results depend on the processing

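Of 161 member results in 20 comparisons, 93 were called, and 60 of these were called in the same direction under every alternative fit of the counts, 44 with the authors' TPM added. The sign of 2 called results changed in fits of the counts, JUN and JUND in the cytoplasm of endoderm against its nucleus. Total-count scaling changed most. For the cytoplasm against the nucleus it turned FOS to 0.025 and JUNB to 0.11 (hPSC), IER2 to 0.10 and FOSL1 to 0.048 (ectoderm), JUND to 0.048 and JUN to 0.23 (endoderm) and JUN to -0.042 (mesoderm). For chromatin against the cytoplasm it turned MYC to 0.026 (hPSC), MYCN to 0.14, MYC to 0.00025 and FOS to 0.075 (ectoderm), and IER2 to 0.20 and JUNB to 0.10 (mesoderm). For chromatin against nucleoplasm it turned ATF3 to 0.15 and FOSL1 to 0.042 (hPSC), FOSL1 to 0.072 and JUN to 0.066 (ectoderm), and JUND to 0.54, MYC to 0.46, ATF3 to 0.59 and FOSL1 to 0.47 (endoderm). For the difference of differences it turned MYC to 0.014, ATF3 to 0.082 and JUNB to 0.012 (ectoderm) and IER2 to 0.12 (mesoderm). With DESeq2, FOS (ectoderm, -0.027) and ATF3 (endoderm, 0.028) changed sign for chromatin against nucleoplasm, IER2 (mesoderm, 0.0033) for chromatin against the cytoplasm, and MYC (ectoderm 0.054, mesoderm 0.0052), ATF3 (ectoderm 0.14, endoderm 0.11), JUNB (ectoderm 0.056) and IER2 (mesoderm 0.17) for the difference of differences. FOS on ectoderm chromatin against nucleoplasm was -0.066 with no filter and -0.041 in the combined assembly. With the 2 cell types alone, chosen after seeing the data, the ATF3 difference in ectoderm was 0.051. Except for JUN and JUND in endoderm, none of these results was called in the fit reported, and the cause was not tested.

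The authors' TPM, chosen as an alternative after seeing the data, brought the called results that changed sign under any alternative to 17; the cause was not tested. As deposited, for the cytoplasm against the nucleus, the turned values were JUND -0.013, MYCN -0.16, MYC -0.096 and IER2 -0.023 (hPSC), IER2 0.013 (ectoderm), and JUND -0.21, MYCN -0.91, ATF3 -0.20, FOSL1 -0.425 and JUN -1.05 (mesoderm). For chromatin against the cytoplasm they were JUND 0.64, MYC 0.84 and FOSL1 0.090 (hPSC), EGR1 0.63, MYCN 0.89, MYC 0.74, ATF3 0.046, FOS 0.83, FOSL1 0.22 and JUN 0.62 (ectoderm), and MYCN 0.42, MYC 0.82, IER2 0.98, JUNB 0.92 and JUN 0.78 (mesoderm). For chromatin against nucleoplasm they were ATF3 0.49 and FOSL1 0.44 (hPSC), EGR1 0.41, MYC 0.36, ATF3 0.35, FOSL1 0.34 and JUN 0.54 (ectoderm), and JUND 0.53, MYC 0.47, ATF3 0.53 and FOSL1 0.35 (endoderm). Against hPSC ATF3 was 0.071 (ectoderm cytoplasm), 0.26 (mesoderm cytoplasm), 0.19 (ectoderm chromatin) and 0.26 (mesoderm chromatin). The differences of differences were ATF3 0.12 and JUNB 0.040 (ectoderm), and IER2 -0.094 (endoderm) and 0.082 (mesoderm). With library medians set equal the turned values were JUNB 0.059 (hPSC) and EGR1 -0.047 (ectoderm) and JUN -0.014 (mesoderm) for the cytoplasm against the nucleus, MYCN -0.024 and IER2 -0.098 for hPSC chromatin against cytoplasm, JUND 0.021 and ATF3 0.022 for endoderm chromatin against nucleoplasm, and ATF3 0.0020 (mesoderm cytoplasm) and 0.043 (ectoderm chromatin) against hPSC. For the differences they were MYC 0.011, ATF3 0.23 and JUNB 0.15 (ectoderm), ATF3 0.13 (endoderm) and IER2 0.070 (mesoderm). In TPM as deposited, genes called came to 7714 of 13987 (hPSC chromatin against nucleoplasm) and 5334 of 15655 (ectoderm cytoplasm against nucleus). For the ectoderm and mesoderm differences they came to 1217 and 1039 of 10689. Members called came to 3, 7 and 8 of 9 in hPSC and 1, 7 and 5 of 9 in ectoderm (cytoplasm against nucleus, chromatin against cytoplasm, chromatin against nucleoplasm). For the cytoplasm against the nucleus they were 4 of 8 in endoderm and 7 of 10 in mesoderm. For the ectoderm and mesoderm differences they were 1 and 0 of 7. The share of all genes called in TPM is not given for the other comparisons. These member counts are to be read beside the all-gene TPM medians above, and not as a result about the members.

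Counts of calls moved by over 1.5 times in a few places. Members called for ectoderm cytoplasm against nucleus came to 2 under total-count scaling, and for ectoderm chromatin against nucleoplasm to 2 (EGR1 or MYCN added) under total-count scaling, with DESeq2, with no filter and in the combined assembly. For ectoderm against hPSC on chromatin 3 were called under total-count scaling. Genes called for the mesoderm difference of differences fell to 1148 of the genes tested with 2 cell types alone, which leaves fewer samples.

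Without single libraries, members called ranged from 2 to 5 (hPSC cytoplasm against nucleus), 2 to 4 (hPSC chromatin against nucleoplasm), 3 to 5 (ectoderm cytoplasm against nucleus), 1 to 2 (ectoderm chromatin against nucleoplasm), 2 to 4 (ectoderm against hPSC on chromatin), 0 to 5 (endoderm difference of differences; 0 without endoderm cytoplasm 3, 1 without endoderm cytoplasm 2 and 5 without hPSC chromatin 3) and 1 to 2 (mesoderm difference). Genes called ranged from 2792 to 4494 for hPSC chromatin against nucleoplasm (2840 without nucleoplasm 1 and 2792 without nucleoplasm 3) and from 1881 to 3734 for the mesoderm difference (3734 without mesoderm chromatin 3). Results near 0 that changed sign, none of them called, ranged as follows for the cytoplasm against the nucleus: FOS -0.28 to 0.028 and JUNB -0.29 to 0.14 (hPSC), and JUNB -0.24 to 0.0032 (mesoderm). For chromatin against the cytoplasm, IER2 ranged from -0.057 to 0.086 (hPSC) and -0.24 to 0.067 (mesoderm), and EGR1 from -0.23 to 0.31 (mesoderm). For chromatin against nucleoplasm the ranges were -0.11 to 0.037 for ATF3 (hPSC), -0.17 to 0.036 for FOS and -0.0029 to 0.22 for JUNB (ectoderm), and -0.27 to 0.069 for JUND, -0.19 to 0.18 for ATF3 and -0.32 to 0.10 for FOSL1 (endoderm). Against hPSC, ATF3 ranged from -0.14 to 0.097 (mesoderm cytoplasm) and -0.39 to 0.047 (mesoderm chromatin), and FOS from -0.26 to 0.088 (endoderm chromatin). For the difference of differences, MYC ranged from -0.15 to 0.0044, ATF3 from -0.16 to 0.11 and JUNB from -0.28 to 0.15 (ectoderm), ATF3 from -0.30 to 0.051 (endoderm) and IER2 from -0.21 to 0.13 (mesoderm).

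The repeat numbers in the labels gave no steady sign of pairing. Correlations of same-numbered deviations ran from -0.388 to 0.419, and no comparison had all 3 above 0.1. In 2 comparisons every library correlated best with its own number. With 3 libraries per group this cannot show whether same-numbered libraries came from 1 culture. A replicate block kept 156 member results on their side of the threshold and lost 5 calls: FOS in ectoderm cytoplasm against nucleus (0.35), MYC on mesoderm chromatin (-0.29), ATF3 (-0.56) and IER2 (0.49) on ectoderm chromatin against hPSC, where 3 members were then called, and the FOS difference in endoderm (0.73). FOSL1 rested on few counts per library in ectoderm (20 to 35 in the cytoplasm, 11 to 20 on chromatin); on endoderm chromatin, where it was called, it had 20 to 42, and the part of depth was not tested.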
